A study of Rattus norvegicus with 10 samples.

Results

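The cadherin superfamily was followed through a time course of fibroblast growth factor 2 (FGF2) in rat lens explants. A gene was a member when the array annotation gave a probe set the single symbol of a cadherin (Cdh), cadherin-related protein (Cdhr), protocadherin (Pcdh), desmocollin (Dsc), desmoglein (Dsg), Fat or flamingo (Celsr) gene; Pcdh10 was left out by the rule. This gave 46 of the 14217 genes measured. The rule itself used symbols only, but it was chosen with earlier results of these data known. The probe set with the highest mean log2 intensity over all arrays stood for its gene. There were 36 genes with 1 probe set, 5 with 2 and 5 with 3, which made 61 probe sets in all. By the structure of the proteins the members fell into 4 classical type I cadherins, 8 type II cadherins, 8 atypical, 7-domain and hair-bundle cadherins, 4 desmosomal cadherins, 7 non-clustered protocadherins, 9 clustered protocadherins, and 6 giant Fat and flamingo cadherins.

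RNA was measured on 10 Affymetrix arrays, 2 for each of 5 time points. Explants from 3-day-old rat pups, 6 per assay, were kept overnight at 5 ng/ml FGF2, and this low dose was the 0 hr group. In the other groups the dose was raised to 100 ng/ml, and RNA was taken 2, 4, 12, or 24 hr later, so every group had the overnight low dose in common, and the higher dose is the one that drives lens epithelial cells toward fiber cells in this system. The study describes the 2 arrays of a time point as biological replicates. No explants held at the low dose for the same hours were analysed here, so an effect of the dose and one of time in culture cannot be told apart. Strain and sex were not given in the sources used here. A lens explant is a sheet of epithelium on the lens capsule. In such bulk RNA, fewer cells of a type and less RNA per cell cannot be told apart.

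Cadherins are membrane proteins that bind their like on the neighboring cell in the presence of calcium. Classical cadherins hold adherens junctions together and are tied to actin through catenins, whereas desmocollins and desmogleins form desmosomes, which are tied to intermediate filaments through plakoglobin, plakophilins and desmoplakin. Protocadherins, Fat and flamingo proteins serve in cell sorting, axon and dendrite patterning, and planar cell polarity. The lens epithelium is known for both E-cadherin (Cdh1) and N-cadherin (Cdh2), and fiber cells keep N-cadherin and lose E-cadherin as they differentiate.

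Before the members are described, some facts of the arrays matter. The median intensity was between 98.0 and 100.3 on the 10 arrays. The SD of the log2 difference between the arrays of a time point was 0.29 and 0.30 at 2 and 4 hr. It was 0.16, 0.17, and 0.21 at 0, 12, and 24 hr. The fit shares 1 spread per probe set across all times, so an SE may be too small for 2 and 4 hr. The names of the arrays put the 2 and 4 hr arrays in 1 run and the 0 hr arrays and the 12 and 24 hr arrays in others, so run and time cannot be told apart outside the steps from 2 to 4 hr and from 12 to 24 hr. The log2 ratio of the 5′ to the 3′ probe set of Actb, a sign of RNA integrity and of priming from the 3′ end, was −1.12 and −1.21 at 0 hr and lay between −1.30 and −2.13 on the later arrays. Of 7 lens epithelium markers measured, 5 changed at 1 or more times, and their summed intensity was 56939 to 57725 at 0 hr and 57757 to 58907 at 24 hr. Cryaa and Cryab, the alpha-crystallin genes, were at 17856 or more in every group mean and made the main part of this sum. The paper counts alpha-crystallin expression among early features of fiber differentiation, so the sum says little about epithelial identity. For macrophages, 3 of 7 markers were in the bottom tertile of brightness over all probe sets (mean intensity up to 43.5), for photoreceptors 5 of 6, and for pigment epithelium 5 of 6. The summed intensity of these 3 lists was 259 to 497, 156 to 172, and 187 to 205 over all arrays. Mesenchyme markers summed to 11647 to 11892 at 0 hr and 9102 to 10989 at 24 hr, with Pdgfra, also a gene of lens epithelium, as the main part.

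Of the 46 cadherin genes 24 changed from 0 hr at 1 or more of the 4 times: 8 rose only, 15 fell only, and Cdh15 fell first and rose later. Calls rest on limma, with p-values adjusted by Benjamini-Hochberg over all 31042 probe sets and a threshold of 0.05. At 2 hr, 8 members were called, 4 higher and 4 lower, which is 17.4% of them against 19.4% of all genes (9.51% higher and 9.87% lower). At 4 hr there were 12, with 4 higher and 8 lower, or 26.1% against 27.4% of all genes (13.5% higher and 13.9% lower). At 12 hr, 16 members were called, 8 in each direction, which is 34.8% against 23.6% (11.7% higher and 11.9% lower). By 24 hr the count was 18, 7 higher and 11 lower, or 39.1% against 24.7% (12.2% higher and 12.4% lower). The early shares lay close to the background and the later ones above it in this fit. At an unadjusted p from the methods' analysis of variance, 15 of the 46 members were called at 12 hr and 13 at 24 hr. Of all probe sets 29.1% and 26.4% were called there, against 19.0% and 20.2% in the main fit. The excess over all probe sets thus depended on the test. With the Actb ratio as a covariate 12 were called at 24 hr, and 17.3% of all probe sets. The median log2 difference of the members was 0.01, −0.06, −0.00, and −0.01 at the 4 times, against −0.01, −0.02, 0.02, and 0.03 over 1 probe set per gene, so the family did not move one way as a whole. Over all 4 times 47.4% of genes were called at least once. Lack of overlap with the 0 hr arrays was common. Both arrays of a time lay on 1 side of both 0 hr arrays in 29, 26, 34, and 34 members at the 4 times. Over the 14217 genes this held for 8716, 9430, 9991, and 9944.

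The counts at 2 and 4 hr depended on single arrays. At 2 hr the count was lower without either 0 hr array or the first 2 hr array, and at 4 hr without the second 0 hr array. Fewer of all probe sets were called in these fits too, so the drop was not particular to the cadherins. With the Actb ratio as a covariate 4 members were called at 2 hr, and 7.92% of all probe sets against 17.5% in the main fit.

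Called members were mostly among the brighter ones. Of the 21 genes in the bottom tertile, 2 were called at any time (Pcdhb6 and Pcdhb17), against 22 of the 25 brighter ones. Among all genes the shares were 12.8% in the bottom tertile and 57.5% above it, so the low count among dim members is near the background. The count among brighter members, 22 of 25, lay above it in this fit. The 22 genes called at no time had log2 differences between −0.52 and 0.46.

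**Figure D1:**
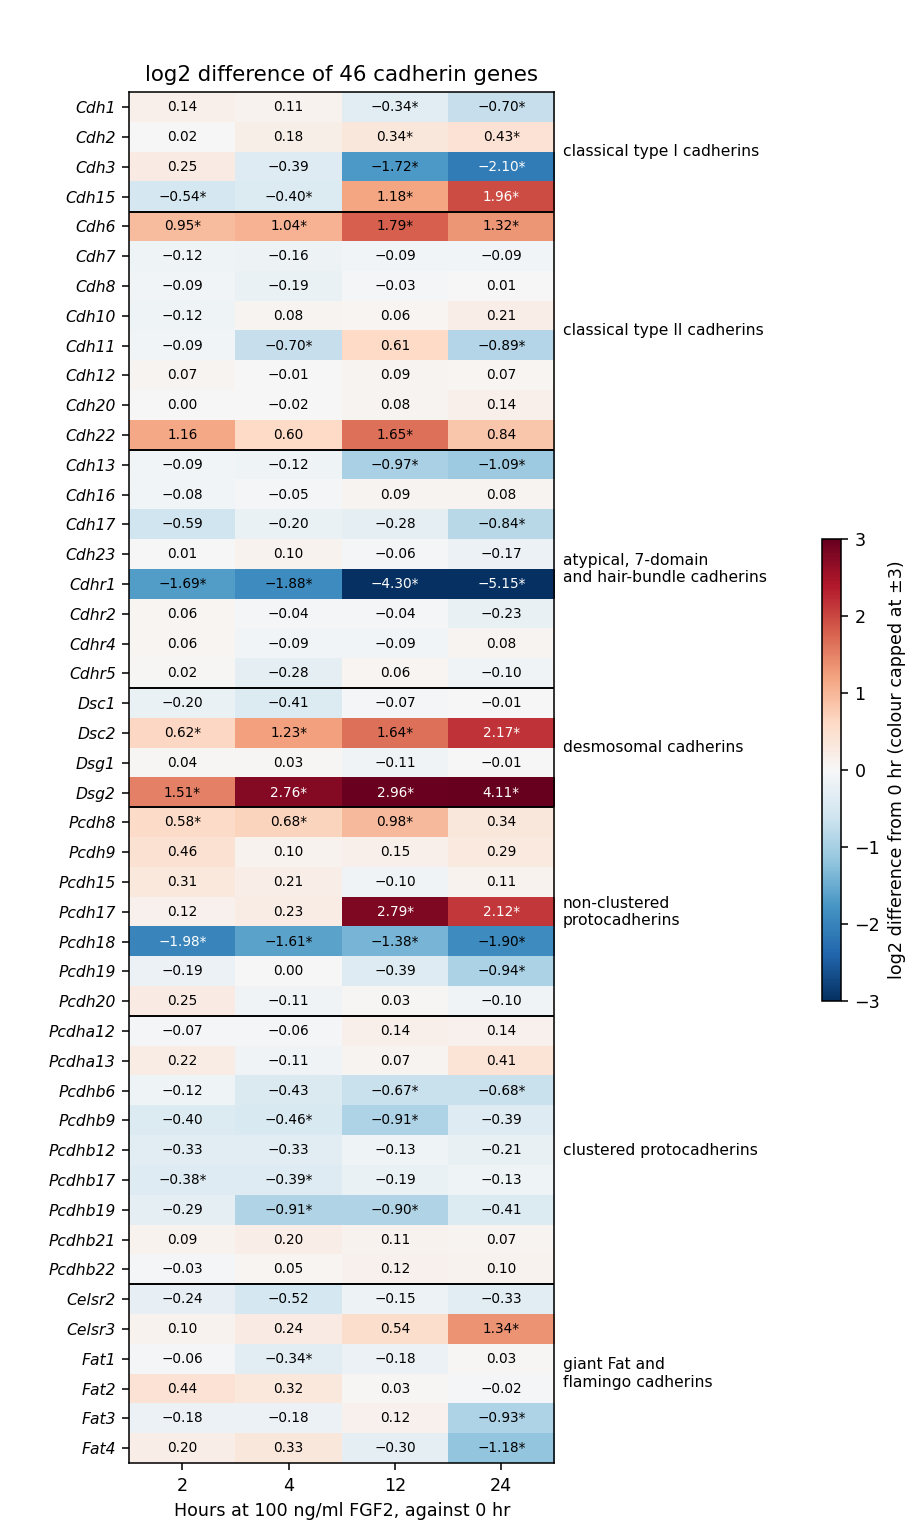
Each row is 1 of the 46 genes and each column a time at 100 ng/ml FGF2; the printed number and the colour, capped at 3 in both directions, are the log2 difference from 0 hr, and a star marks an adjusted p under 0.05. Cdhr1 (−5.15 at 24 hr) and Dsg2 (4.11) are the extremes, and all 4 type I cadherins carry a star at 12 and 24 hr.

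There were 6 genes called at all 4 times: Cdh15, Cdh6, Cdhr1, Dsc2, Dsg2, and Pcdh18. For 4 of them the 250 bases before the transcription start are printed, because their calls spanned the whole course and show each kind of it: a steady fall (Cdhr1), a drop within 2 hr (Pcdh18), a turn upward (Cdh15) and a rise (Cdh6). The early calls of Cdh15 were near the threshold. They come from RefSeq on the build GRCr8, whose table held 34 of the 46 members, and are written 5′ to 3′ along the gene, ending at the last base before the start. Capitals mark CANNTG, the general E-box.
Cdhr1, GRCr8 chr16:12883580-12883829, minus strand: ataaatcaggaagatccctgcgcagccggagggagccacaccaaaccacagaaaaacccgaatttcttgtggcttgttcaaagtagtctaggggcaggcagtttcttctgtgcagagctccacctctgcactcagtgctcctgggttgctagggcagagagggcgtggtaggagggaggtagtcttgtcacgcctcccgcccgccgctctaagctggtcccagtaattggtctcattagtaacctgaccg
Pcdh18, GRCr8 chr2:135996827-135997076, minus strand: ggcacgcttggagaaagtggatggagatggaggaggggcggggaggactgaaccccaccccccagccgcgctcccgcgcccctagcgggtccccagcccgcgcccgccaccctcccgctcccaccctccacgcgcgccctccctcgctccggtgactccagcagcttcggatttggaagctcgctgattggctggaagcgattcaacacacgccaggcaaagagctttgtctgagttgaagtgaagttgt
Cdh15, GRCr8 chr19:67814407-67814656, plus strand: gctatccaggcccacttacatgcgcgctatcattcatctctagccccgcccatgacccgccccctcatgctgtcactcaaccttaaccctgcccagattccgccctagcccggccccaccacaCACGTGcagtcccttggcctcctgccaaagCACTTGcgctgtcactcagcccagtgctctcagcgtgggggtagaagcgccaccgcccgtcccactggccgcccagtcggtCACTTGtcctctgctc
Cdh6, GRCr8 chr2:63952288-63952537, minus strand: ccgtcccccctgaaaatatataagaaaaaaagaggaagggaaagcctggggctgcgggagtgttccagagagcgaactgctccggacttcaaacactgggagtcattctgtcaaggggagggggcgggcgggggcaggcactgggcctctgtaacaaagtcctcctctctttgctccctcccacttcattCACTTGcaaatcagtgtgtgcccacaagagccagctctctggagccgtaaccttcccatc
Cdh15 held 3 such matches, which began 127, 97, and 16 bases before the start, Cdh6 held 1, and Cdhr1 and Pcdh18 held none. A CANNTG was found in 22 of the 34 member promoters (64.7%) and in 65.5% of the 33469 promoters in the table. The E-box read by Snail and Zeb repressors, CACCTG or CAGGTG, which is 1 form of CANNTG, was in 4 of 34 (11.8%) against 15.9%. The promoters of Cdh1, Cdh2, and Cdh3 were not among the 34, so they were not searched. Of the genes called at all 4 times Dsc2 and Dsg2 held 1 each, 23 and 107 bases before the start. The AP-1 motif TGANTCA was in 1 of 34 (2.94%) against 6.34%, and the Ets core CCGGAA or TTCCGG in 2 of 34 (5.88%) against 12.6%. Both strands were searched, and these motifs were chosen with the expression values known. A match is a run of letters and not a shown binding site.

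The 4 type I cadherins all changed late, Cdh1 and Cdh3 downward and Cdh2 and Cdh15 upward. Cdh1 encodes E-cadherin, the main adherens junction cadherin of epithelia. Its intensity was 10484 and 9845 at 0 hr, 10782 and 11666 at 2 hr, 10730 and 11175 at 4 hr, 8009 and 8075 at 12 hr, and 6003 and 6520 at 24 hr. Both 24 hr arrays were below both 12 hr arrays, and these below every earlier array. The log2 difference from 0 hr was −0.34 at 12 hr (SE 0.09, adjusted p = 0.03) and −0.70 at 24 hr (adjusted p = 0.001), a 1.62-fold lower intensity. The call at 12 hr was lost without any single 0 or 12 hr array, where the difference ranged from −0.29 to −0.38. Of the 7 lens epithelium markers, 1 was higher and 2 were lower at 24 hr, with a median of 0.13: Foxe3 was at −1.18, Pax6 at −0.41, and Maf at 0.46. The paper describes Maf as raised in cells that become primary fibers, so Maf is not particular to epithelium.

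Cdh2, which encodes N-cadherin, moved the other way by a smaller step. Its arrays read 4556 and 4554 at 0 hr, 4512 and 4732 at 2 hr, 5449 and 4913 at 4 hr, 5929 and 5611 at 12 hr, and 6034 and 6273 at 24 hr. The 12 and 24 hr arrays all lay above the 6 earlier ones. The rise was 0.34 on the log2 scale at 12 hr (SE 0.09, adjusted p = 0.028) and 0.43 at 24 hr (adjusted p = 0.0092). It was no longer called at either time without either 0 hr array (0.34 and 0.43), at 12 hr without either 12 hr array (0.30 and 0.38), or at 24 hr without the second 24 hr array (0.41). Since Cdh1 fell and Cdh2 rose, the log2 ratio of Cdh2 to Cdh1, set to 0 at 0 hr, lay between −0.14 and 0.18 on the 4 early arrays, then reached 0.72 and 0.63 at 12 hr, and 1.16 and 1.10 at 24 hr. This ratio shows unequal change and no level of one gene against the other. Of 9 lens fiber markers, 5 were lower at 12 hr and none was called at 24 hr, and their summed intensity was 22238 to 22921 at 0 hr, 13019 to 16317 at 12 hr, and 18870 to 22985 at 24 hr.

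Cdh3 encodes P-cadherin, known from basal layers of epithelia, and lies next to Cdh1 in the RefSeq annotation. Its intensity was 378 and 464 at 0 hr, 423 and 592 at 2 hr, 261 and 394 at 4 hr, 123 and 132 at 12 hr, and 97.6 and 98.0 at 24 hr. The early arrays overlapped with those of 0 hr, whereas every late array was below every early one. Cdh3 fell by 1.72 on the log2 scale at 12 hr (SE 0.21, adjusted p = 0.00088) and by 2.10 at 24 hr (adjusted p = 0.00033), to a 4.29-fold lower intensity. Cdh1, its neighbor, was at −0.34 and −0.70 at the same times.

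Cdh15 encodes M-cadherin, known from muscle and its satellite cells. Its arrays read 97.7 and 120.5 at 0 hr, 76.8 and 72.7 at 2 hr, 88.1 and 76.3 at 4 hr, 251 and 240.1 at 12 hr, and 449 and 397 at 24 hr. The early arrays were all below, and the late arrays all above, both 0 hr arrays. Cdh15 was the only member called in both directions: −0.54 at 2 hr (SE 0.13, adjusted p = 0.021) and −0.40 at 4 hr (adjusted p = 0.048), then 1.18 at 12 hr (adjusted p = 0.00046) and 1.96 at 24 hr (adjusted p = 4.6e-05), a 3.89-fold rise. The early fall was near the threshold, and its call was lost in 6 of 22 alternatives at 2 hr and in 16 of 22 at 4 hr. Without the second 0 hr array the fall was −0.39 at 2 hr and −0.25 at 4 hr. The late rise stayed between 1.03 and 2.12 in all alternatives.

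**Figure D2:**
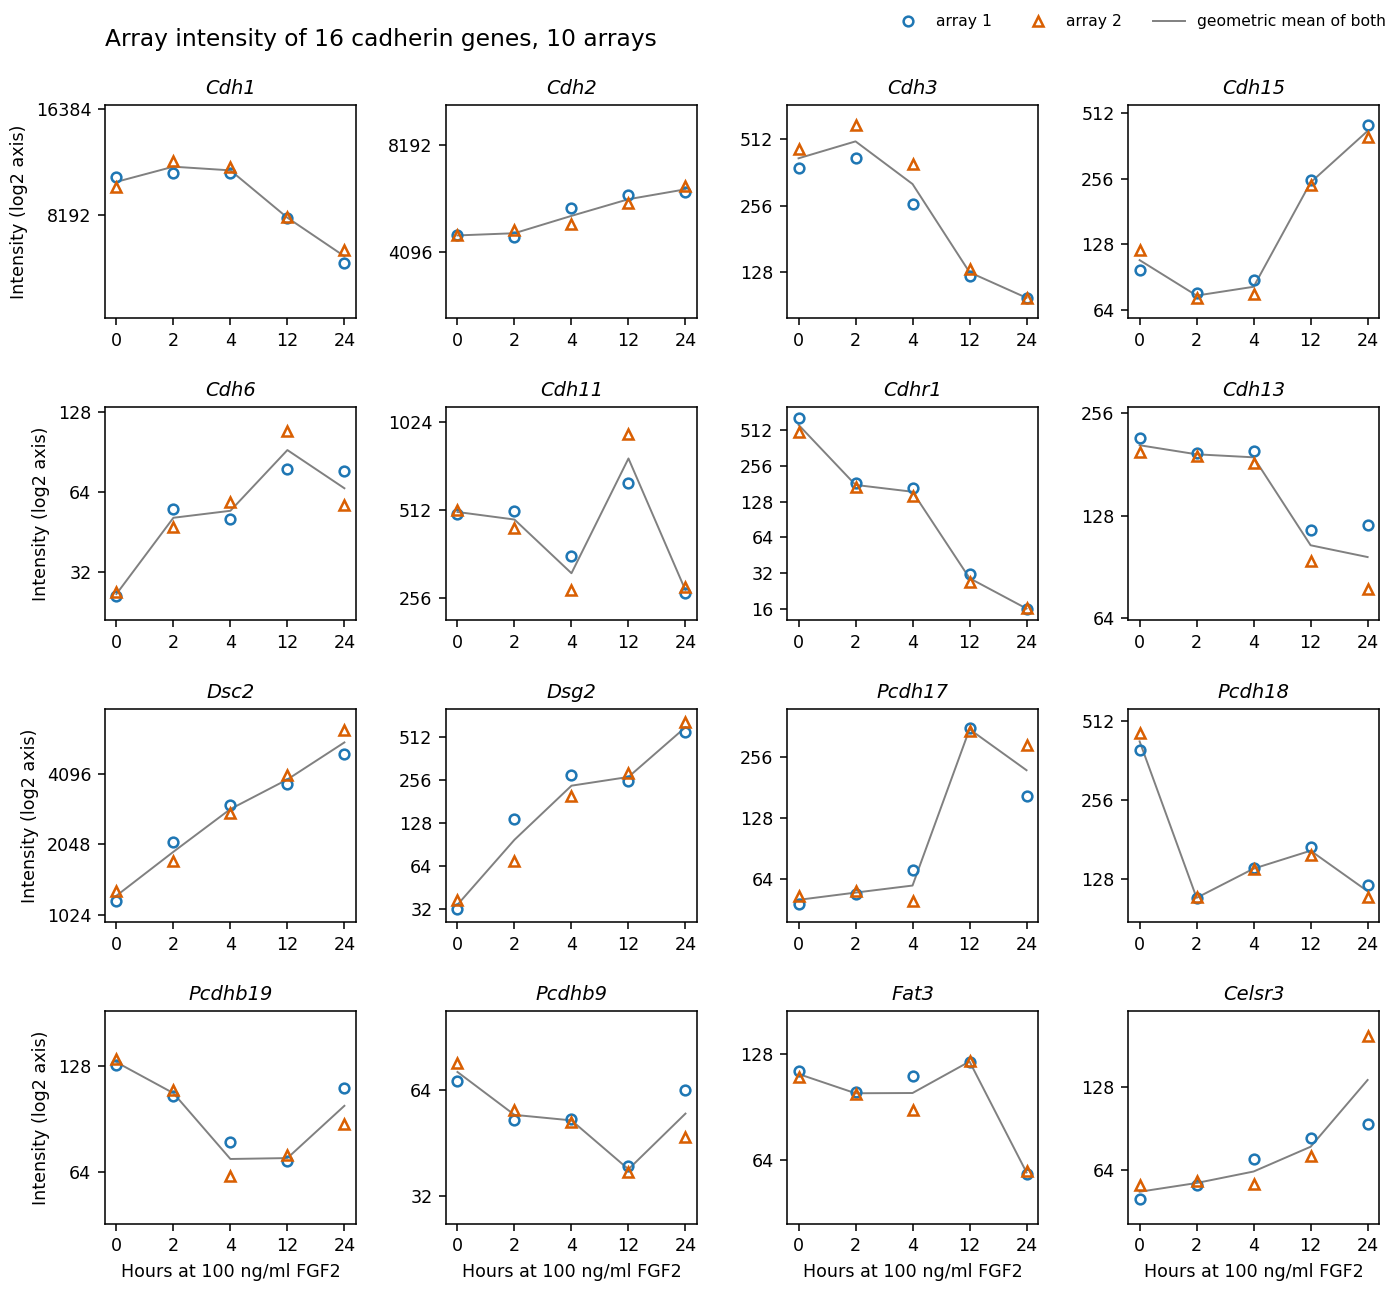
Intensity on a log2 axis of 16 genes against hours at 100 ng/ml FGF2, with both arrays of a time point as a circle and a triangle and a line through their geometric means; each panel has its own scale, and hours are spaced evenly. Cdh1 and Cdh3 are lowest at 24 hr, Dsc2 and Dsg2 are highest there, and Pcdh18 drops from 396 and 459 to 108 and 109 within 2 hr.

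Of the 8 type II cadherins 3 were called. Cdh6 encodes K-cadherin, known from kidney and neural crest, and it rose at all times. Its arrays read 26.2 and 27.0 at 0 hr, 55.3 and 47.5 at 2 hr, 50.6 and 58.5 at 4 hr, 78.2 and 107.9 at 12 hr, and 76.6 and 57.0 at 24 hr. Every treated array was above both 0 hr arrays, the highest pair at 12 hr. The rise was 0.95, 1.04, 1.79, and 1.32 on the log2 scale (SE 0.18, adjusted p from 0.00037 to 0.0095). With 16 added to each intensity, which tempers changes of dim probe sets, it was 0.66, 0.73, 1.34, and 0.95. The call at 2 hr was lost without either 0 hr array (0.93 and 0.97).

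Cdh11, the OB-cadherin of mesenchyme and bone, did not move steadily. Its intensity was 494 and 512 at 0 hr, 506 and 444 at 2 hr, 355 and 272 at 4 hr, 631 and 931 at 12 hr, and 265 and 279 at 24 hr. The 12 hr arrays were the highest and the 24 hr arrays among the lowest. Cdh11 was lower at 4 hr (−0.70, SE 0.19, adjusted p = 0.027) and at 24 hr (−0.89, adjusted p = 0.011), while the 12 hr difference of 0.61 did not pass (adjusted p = 0.053). The step from 12 to 24 hr was −1.50 (adjusted p = 0.0048). Calls against 0 hr were lost without either 0 hr array (−0.72 and −0.67 at 4 hr, −0.91 and −0.86 at 24 hr), without the second 4 hr array (−0.50), and without either 24 hr array (−0.85 and −0.92), but the step was called throughout.

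Cdh22, also named PB-cadherin and known from pituitary and brain, read 346 and 211 at 0 hr, 665 and 549 at 2 hr, 257 and 651 at 4 hr, 721 and 992 at 12 hr, and 538 and 434 at 24 hr. Its pairs of arrays lay far apart at 0 and 4 hr. It was called at 12 hr only (1.65, SE 0.40, adjusted p = 0.021), and not without the second 0 hr array (1.29) or either 12 hr array (1.88 and 1.42). The other 5 type II genes, Cdh7, Cdh8, Cdh10, Cdh12, and Cdh20, were all in the bottom tertile, with intensities of 7.61 to 27.4 and log2 differences between −0.19 and 0.21.

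The atypical and 7-domain group held the largest fall of the family, that of Cdhr1, a photoreceptor cadherin known for its part in the outer segment discs. Its arrays read 650.0 and 498 at 0 hr, 184 and 170.3 at 2 hr, 167 and 144 at 4 hr, 31.2 and 26.6 at 12 hr, and 15.8 and 16.2 at 24 hr. No group overlapped with the one before it. The log2 difference from 0 hr was −1.69 at 2 hr (SE 0.14, adjusted p = 0.00025), −1.88 at 4 hr (adjusted p = 7.3e-05), −4.30 at 12 hr (adjusted p = 4.9e-06), and −5.15 at 24 hr (adjusted p = 3.1e-06), the last a 35.6-fold fall. The late arrays were as dim as the bottom tertile, where the size of a fold rests on the background correction, and with 16 added to each intensity the late differences were −3.70 and −4.19. The 6 photoreceptor markers summed to 156 to 160 at 0 hr and 164 to 172 at 24 hr, with 1 call, Gnat1, higher at 4 hr by 0.34. Since 5 of the 6 were in the bottom tertile, they had little room to fall, and their part in the fall of Cdhr1 was not tested.

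Cdh13 encodes T-cadherin, which is held by a lipid anchor and has no cytoplasmic tail, and is known from vascular endothelium, heart and neurons. It read 216 and 196 at 0 hr, 196 and 191 at 2 hr, 198 and 182 at 4 hr, 117 and 94.3 at 12 hr, and 120.2 and 78.0 at 24 hr. The late arrays were all below the early ones, by −0.97 at 12 hr (SE 0.19, adjusted p = 0.0074) and −1.09 at 24 hr (adjusted p = 0.0043) against 0 hr. Without the first 0 hr array or the second 12 hr array the 12 hr call was lost (−0.90 and −0.82). Of 8 endothelial markers measured, 3 were lower at 12 hr and 4 at 24 hr, with Emcn at −1.90 and Tek at −1.57 at 24 hr, while Kdr was higher at 12 hr (1.21). Their summed intensity was 1682 to 2113 at 0 hr, 1208 to 1303 at 12 hr, and 1024 to 1118 at 24 hr, with 3 of the 8, Pecam1, Flt1, and Tie1, in the bottom tertile. Their part in the fall of Cdh13 was not tested.

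Cdh17, the 7-domain cadherin of liver and intestine, was called only at 24 hr, where its arrays read 45.5 and 80.0 against 99.9 and 116 at 0 hr (−0.84, SE 0.22, adjusted p = 0.028). The call was lost without either 0 hr array (−0.94 and −0.73) and without the first 24 hr array (−0.43). Cdh16, Cdh23, Cdhr2, Cdhr4, and Cdhr5 were called at no time, with 4 of the 5 in the bottom tertile and log2 differences between −0.28 and 0.10.

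The desmosomal cadherins split into 1 pair that rose at every time and 1 dim pair that did not. Dsc2 and Dsg2 encode the desmocollin and desmoglein of simple epithelia, and they lie in the row of desmocollin and desmoglein genes next to Cdh2. Dsc2 read 1178 and 1297 at 0 hr, 2086 and 1734 at 2 hr, 3003 and 2782 at 4 hr, 3688 and 4050 at 12 hr, and 4940 and 6247 at 24 hr. No group overlapped with the one before. The log2 rise was 0.62, 1.23, 1.64, and 2.17 at the 4 times (SE 0.14, adjusted p = 0.017, 0.00047, 0.00015, and 4.6e-05), up to 4.50-fold. Dsg2 read 32.1 and 36.8 at 0 hr, 137 and 69.7 at 2 hr, 276 and 197 at 4 hr, 251 and 286 at 12 hr, and 549 and 646 at 24 hr. Every treated array was above both 0 hr arrays, and both 24 hr arrays above all others. Its log2 rise was 1.51, 2.76, 2.96, and 4.11 (SE 0.29, adjusted p = 0.0086, 0.0003, 0.00027, and 5.9e-05), and 1.18, 2.30, 2.49, and 3.60 with 16 added to each intensity, since the 0 hr arrays were dim. At 2 hr the calls were lost without the first 0 hr array (0.55 for Dsc2 and 1.41 for Dsg2), and that of Dsc2 also without the second 0 hr array (0.69) or the first 2 hr array (0.49).

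Dsc1 and Dsg1, the pair of the upper epidermis, were in the bottom tertile, at 20.7 to 34.1 over all 10 arrays, with no call. Of 8 desmosome plaque and envelope proteins measured 6 were called at any time, against 47.4% of all genes and 57.5% of those above the bottom tertile, where all but 1 lay. They did not follow Dsc2 and Dsg2 as a group: the counts of higher and lower genes were 3 and 0 at 2 hr, 4 and 1 at 4 hr, 2 and 1 at 12 hr, and 2 and 2 at 24 hr, where 19.4%, 27.4%, 23.6%, and 24.7% of all genes were called in either direction; the same background holds for the other partner lists. Their median log2 difference was 0.26, 0.42, −0.08, and −0.03. Pkp1, a plakophilin that links desmosomal cadherins to desmoplakin, rose at all times, by 2.20, 3.21, 2.07, and 1.91 (SE 0.20), from 113 and 90.8 at 0 hr to 906 and 971 at 4 hr. Perp, a membrane protein of desmosomes, rose by 1.46, 2.35, 2.80, and 1.39 (SE 0.18). Ppl, the gene of the cornified envelope protein periplakin, rose by 1.46 and 1.57 at 2 and 4 hr and was at −0.37 and −0.22 later, and Evpl, its partner envoplakin, rose at 4 hr only (0.78). Pkp2 fell at 4 hr (−0.79) and 24 hr (−1.03), and Pkp4, a plakophilin relative of adherens junctions, fell at 12 hr (−0.78) and 24 hr (−0.68). Dsp (desmoplakin) and Pkp3 were within −0.01 to 0.15 of 0 hr. Their group means were 62.1 to 66.7 and 37.9 to 42.1, and Pkp3 was in the bottom tertile, so such dim probe sets may miss a change.

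Of 7 surface epithelium markers measured, 3 were called at any time, with medians of 0.30, 0.16, 0.06, and 0.06 at the 4 times. Krt12, the corneal keratin, rose by 2.80, 3.75, 5.25, and 4.76, Krt15 by 3.57 and 3.28 at 2 and 4 hr, and Sfn by 0.63 at 2 hr, while Krt5, Krt13, Krt14, and Ivl were called at no time. The summed intensity of the list was 233 to 261 at 0 hr, 1041 to 1699 at 2 hr, 1095 to 2268 at 4 hr, 1590 to 1760 at 12 hr, and 948 to 1660 at 24 hr, with Krt5, Krt13, and Ivl in the bottom tertile. The markers' part in the rise of Dsc2 and Dsg2 was not tested.

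**Figure D3:**
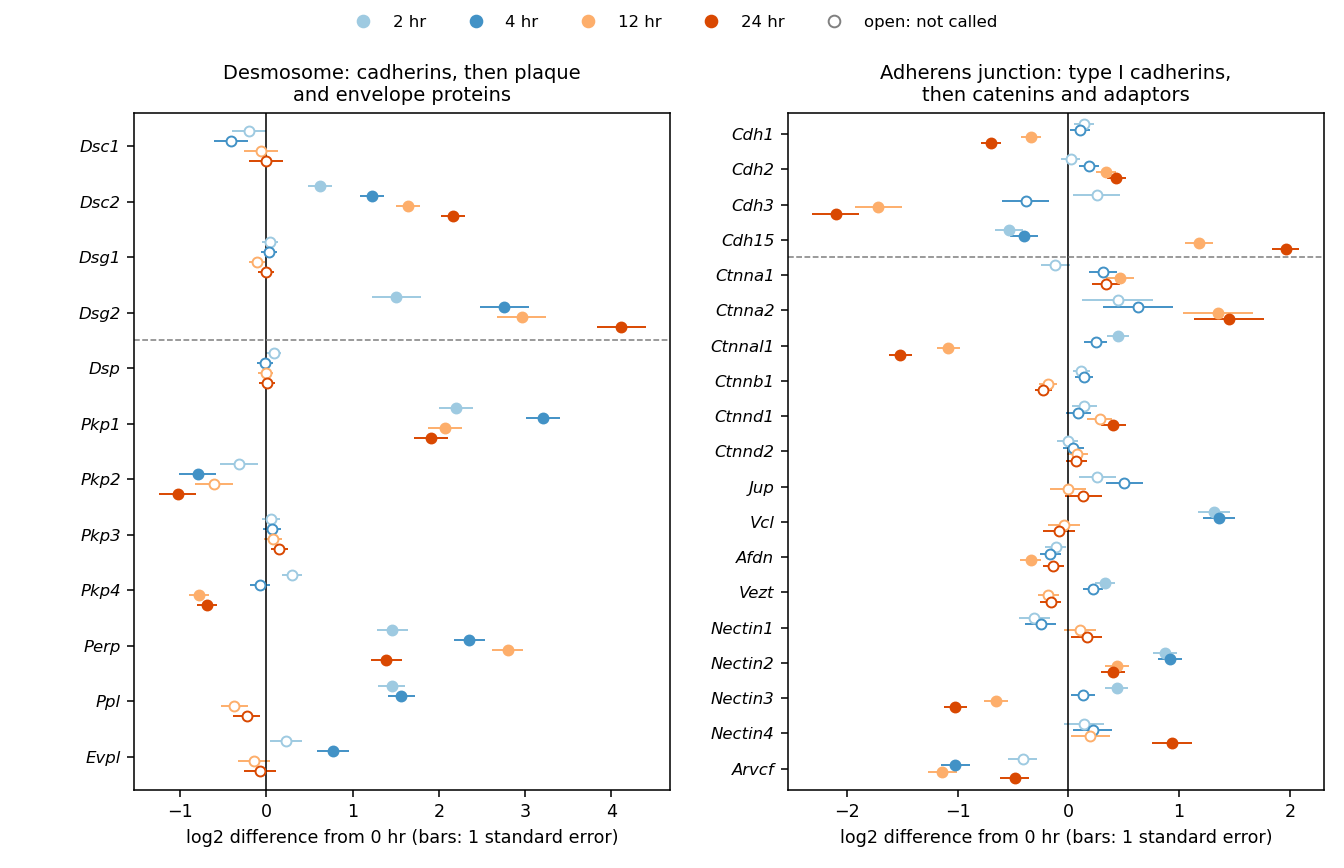
Points give the log2 difference from 0 hr at 2, 4, 12, and 24 hr with bars of 1 standard error, filled where called, for desmosomal genes (left) and adherens junction genes (right), with the cadherins above the dashed line. Dsc2 and Dsg2 climb at each time, Pkp1 peaks at 4 hr (3.21), and Dsp stays within 0.09 of 0.

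At the adherens junction, 11 of 15 catenins and adaptors measured were called at 1 or more times, against 57.5% of all genes above the bottom tertile, where all 15 lay: 5 were higher and 0 lower at 2 hr, and the same counts were 2 and 1 at 4 hr, 3 and 4 at 12 hr, and 4 and 3 at 24 hr. The median log2 difference was 0.14, 0.22, −0.00, and 0.07. Ctnnb1 (beta-catenin), Jup (plakoglobin) and Ctnnd2 (delta-catenin) were called at no time. Ctnna1, the alpha-catenin of epithelia, rose at 12 hr (0.47) and Ctnnd1, p120-catenin, at 24 hr (0.41). Ctnna2, the neuronal alpha-catenin, rose at 12 and 24 hr, by 1.35 and 1.45 (SE 0.32). Falls of more than 1 log2 unit were those of Ctnnal1, an alpha-catenin relative, which was up at 2 hr (0.45) and down later (−1.08 and −1.52), of Nectin3, up at 2 hr (0.44) and down later (−0.65 and −1.02), and of Arvcf, a p120 relative (−1.02, −1.14, and −0.48 from 4 hr on). Vcl (vinculin), which reinforces actin at junctions, rose at 2 and 4 hr only (1.32 and 1.36), and Nectin2 at all 4 times (0.87, 0.92, 0.44, and 0.40). Nectin4 rose at 24 hr (0.94), Vezt, a partner of catenin complexes, at 2 hr (0.33), and Afdn (afadin), which binds nectins, fell at 12 hr (−0.34).

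Genes whose proteins cut or repress cadherins were measured in 9 cases, of which 6 were called at any time, against 47.4% of all genes. Of the 9, 2 were in the bottom tertile, and above it 57.5% of all genes were called. Adam10, the main sheddase of E- and N-cadherin, fell at 24 hr (−1.88, SE 0.29), with intensities of 426 and 478 at 0 hr and 159 and 93.8 at 24 hr, and Adam15 also fell there (−0.86). Psen2, a subunit of gamma-secretase, rose at 12 and 24 hr (0.54 and 0.34). Among repressors of Cdh1, Snai1 rose at all 4 times (1.07, 1.46, 0.93, and 1.10, SE 0.23), Twist1 at 2 and 4 hr (0.81 and 0.67) and Zeb1 at 4 hr (0.43), while Zeb2, Twist2 and the gamma-secretase subunit Ncstn were not called. Cdh1 itself was at 0.14 and 0.11 at 2 and 4 hr and lower only later.

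Among the 7 non-clustered protocadherins 2 rose and 2 fell. Pcdh18, of the delta-2 subfamily, dropped within 2 hr and stayed down. Its arrays read 396 and 459 at 0 hr, 107.8 and 108.5 at 2 hr, 140.3 and 139 at 4 hr, 169 and 158 at 12 hr, and 120.6 and 108.9 at 24 hr. All 8 treated arrays were below both 0 hr arrays. The log2 difference was −1.98, −1.61, −1.38, and −1.90 (SE 0.10, adjusted p = 2.6e-05, 3.2e-05, 8.7e-05, and 2.2e-05), and it stayed between −2.09 and −1.28 under all settings tried.

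Pcdh17, a delta-2 protocadherin known from basal ganglia and amygdala circuits, was a late gene. It read 48.6 and 52.9 at 0 hr, 54.3 and 55.9 at 2 hr, 70.8 and 50.2 at 4 hr, 358 and 345 at 12 hr, and 165 and 295 at 24 hr. The late arrays were all above the early ones, and both 12 hr arrays above both 24 hr arrays. It rose by 2.79 at 12 hr (SE 0.25, adjusted p = 0.00019), a 6.93-fold rise, and by 2.12 at 24 hr (adjusted p = 0.00067). The early differences were 0.12 and 0.23.

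Pcdh8, known as arcadlin, a gene induced by neuronal activity, read 30.6 and 38.4 at 0 hr, 51.3 and 51.1 at 2 hr, 51.9 and 58.1 at 4 hr, 58.4 and 78.2 at 12 hr, and 48.7 and 39.0 at 24 hr. It rose by 0.58, 0.68, and 0.98 at 2, 4, and 12 hr (SE 0.17, adjusted p = 0.05, 0.021, and 0.0047), the first just under the threshold, and was at 0.34 at 24 hr. The 2 hr call was lost without any single array of 0, 2, 4, or 24 hr (0.42 to 0.74), and the 4 hr call without the first 0 hr array (0.52) or the second 4 hr array (0.60). Pcdh19, an X-linked gene known from female-limited epilepsy, fell at 24 hr only, where its arrays read 37.3 and 40.0 against 60.6 and 91.4 at 0 hr (−0.94, SE 0.28, adjusted p = 0.045); this call was lost without any single array of 0, 4, 12, or 24 hr (−0.65 to −1.24). Pcdh9, Pcdh15, and Pcdh20 were dim (14.3 to 34.9) and not called.

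**Figure D4:**
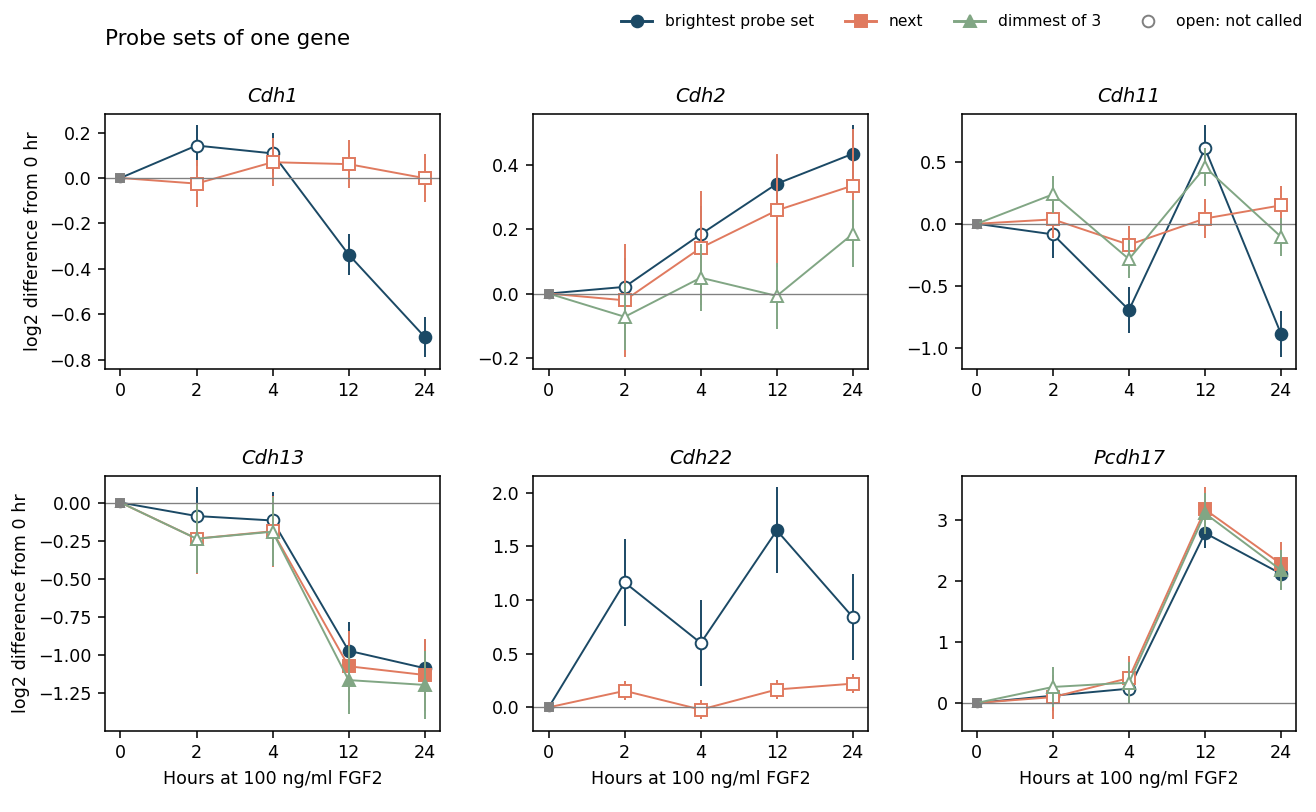
Log2 difference from 0 hr of every probe set of 6 genes that have more than 1, with bars of 1 standard error and filled marks where called; panels have their own scales. The probe sets of Cdh13 and of Pcdh17 run together, while the dimmer ones of Cdh1, Cdh11, and Cdh22 are not called. The dimmest of Cdh11 also peaks at 12 hr (0.46), and the next stays between −0.17 and 0.15.

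Where a gene had other probe sets, they did not always follow the brightest. For Pcdh17 both others rose late (3.18 and 3.12 at 12 hr, 2.28 and 2.18 at 24 hr), and for Cdh13 both others fell late (−1.08 and −1.17 at 12 hr, −1.13 and −1.20 at 24 hr), all of them called. For Cdh2 the second brightest read 0.26 and 0.34 at 12 and 24 hr with an SE of 0.18, and it was not called. The second probe set of Cdh1 was at the bottom of the scale, with group means of 8.25 to 8.80, and showed −0.00 at 24 hr. The others of Cdh11 (group means of 18.5 to 56.4) and of Cdh22 (52.0 to 61.5) were much dimmer and were not called. The dimmest of Cdh11 was at −0.29, 0.46, and −0.11 at 4, 12, and 24 hr, with a step of −0.56 from 12 to 24 hr. The second of Cdh11 was at −0.17, 0.04, and 0.15 at the same times. With all probe sets of a gene averaged on the log2 scale, Cdh1 was at −0.14 at 12 hr, Cdh2 at 0.20 at 12 hr, and Cdh11 at −0.38 at 4 hr and −0.28 at 24 hr, none of them called.

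The clustered protocadherins, which give single neurons their surface identity, had 9 members with a probe set of their own, and 4 of these were called, all downward. Pcdhb19 read 128 and 133 at 0 hr, 105 and 109.0 at 2 hr, 77.7 and 62.4 at 4 hr, 68.7 and 71.4 at 12 hr, and 110.6 and 87.7 at 24 hr. It was lowest at 4 and 12 hr (−0.91 and −0.90, SE 0.14, adjusted p = 0.0018 and 0.0022) and at −0.41 at 24 hr, where it was not called (adjusted p = 0.066). Pcdhb9 had a like course, from 67.8 and 76.2 at 0 hr to 38.8 and 37.4 at 12 hr and 63.7 and 47.1 at 24 hr, with calls at 4 hr (−0.46, adjusted p = 0.043) and 12 hr (−0.91, SE 0.14, adjusted p = 0.0023). Its 4 hr call was lost without any single array of 0, 2, 4, or 12 hr (−0.37 to −0.54).

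Both other called genes were dim. Pcdhb6 was at 27.9 and 39.6 at 0 hr, 20.2 and 21.6 at 12 hr, and 19.7 and 21.9 at 24 hr (−0.67 and −0.68, SE 0.15, adjusted p = 0.016 and 0.015), and its calls were lost without the second 0 hr array (−0.42 and −0.43), without either 12 hr array (−0.62 and −0.72), or without the first 24 hr array (−0.60). Pcdhb17 was lower at 2 and 4 hr (−0.38 and −0.39, SE 0.11, adjusted p = 0.04 and 0.03) at intensities of 11.7 to 16.3, and these calls were lost without either 0 hr array (−0.37 to −0.40), without either 12 hr array, and, each at its own time, without the first 2 hr array (−0.31) or either 4 hr array (−0.44 and −0.34). Pcdha12, Pcdha13, Pcdhb12, Pcdhb21, and Pcdhb22 were called at no time, with log2 differences between −0.33 and 0.41, and 4 of the 5 were in the bottom tertile. Genes of this cluster are close copies, so a probe set may also bind RNA of a neighbor.

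Of the 6 giant cadherins 4 were called, each at 1 time. Fat1, which guides actin at cell borders, read 7712 and 7673 at 0 hr, 7337 and 7464 at 2 hr, 6202 and 5919 at 4 hr, 6788 and 6778 at 12 hr, and 7647 and 8050 at 24 hr. It dipped at 4 hr, by −0.34 (SE 0.08, adjusted p = 0.014), and was at 0.03 at 24 hr; the call was lost without either 0 hr array (−0.34 and −0.35) or the second 4 hr array (−0.31). Fat3, known from retinal neuron shape, read 115 and 109.9 at 0 hr, 99.9 and 98.3 at 2 hr, 110.8 and 88.9 at 4 hr, 121 and 122 at 12 hr, and 58.5 and 59.8 at 24 hr. The 2 hr arrays were below and the 12 hr arrays above both 0 hr arrays by small steps (−0.18 and 0.12, not called), and the call was at 24 hr (−0.93, SE 0.11, adjusted p = 0.0007).

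Fat4, the Fat of the Hippo and planar polarity pathways, read 137 and 211 at 0 hr, 181 and 211 at 2 hr, 186 and 245 at 4 hr, 160 and 119 at 12 hr, and 77.5 and 72.9 at 24 hr. It fell at 24 hr by 1.18 on the log2 scale (SE 0.23, adjusted p = 0.007), a call lost without the second 0 hr array (−0.86). Celsr3, a flamingo protein of axon tracts, rose at 24 hr by 1.34 (SE 0.28, adjusted p = 0.01), where its arrays differed widely, at 94.2 and 195 against 50.5 and 56.8 at 0 hr; without the first 0 hr array the call was lost (1.254). Celsr2 and Fat2 were not called, at −0.52 to 0.44.

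Partners of the Fat and planar polarity pathways changed in 10 of 14 genes measured, against the 47.4% of all genes called at any time. Of the 14, 2 were in the bottom tertile, and above it 57.5% of all genes were called. The counts were 2 higher and 3 lower at 2 hr, 6 and 3 at 4 hr, 4 and 1 at 12 hr, and 3 and 4 at 24 hr, with medians of −0.03, 0.03, 0.08, and −0.03. Dchs1, the cadherin that Fat4 binds, rose from 4 hr on (0.64, 0.74, and 0.84, SE 0.12), the opposite direction to Fat4 at 24 hr. Fjx1, a relative of the kinase that tunes Fat-Dachsous binding in flies, rose at all times (1.59, 2.47, 1.96, and 1.72, SE 0.11). Prickle1 fell at 2 and 4 hr (−0.72 and −0.79) and rose at 24 hr (0.91), whereas Prickle2 fell from 4 hr on (−0.58, −0.60, and −0.53) and Prickle3 rose at 4 and 12 hr (0.40 and 0.37). The core polarity protein genes Vangl1 and Vangl2 were lower at 2 hr (−0.52 and −0.71) and 24 hr (−0.45 and −0.40), and Vangl2 at 4 hr too (−0.47). Of the frizzled receptors of this pathway Fzd6 rose at 2 and 4 hr (0.36 and 0.64) and fell at 24 hr (−0.72), and Fzd3 rose at 4 hr (0.43). Scrib, a polarity scaffold, rose at 4 and 12 hr (0.34 and 0.35).

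The steps within a phase compare arrays of the same run. From 2 to 4 hr 1 member was called, Pcdhb19 (−0.62, SE 0.14, adjusted p = 0.044), which is 2.17% of members against 4.66% of all genes. At an unadjusted limma p under 0.05, 9 members passed, and 17.1% of all probe sets. With only the 2 and 4 hr arrays in the fit, 12 of all 31042 probe sets were called, against 1159 in the main fit. The step of Pcdhb19 was not called without any single array except the first 4 hr array and the 24 hr arrays (−0.46 to −0.65). From 12 to 24 hr 5 members were called, 10.9% against 5.91% of all genes: Cdh15 rose further (0.78, adjusted p = 0.013), and Cdh11 (−1.50, adjusted p = 0.0048), Fat3 (−1.04, SE 0.11, adjusted p = 0.0026), Cdhr1 (−0.85, adjusted p = 0.015) and Pcdh18 (−0.51, adjusted p = 0.027) fell. The count was lower without either 12 hr array or the first 24 hr array, where fewer of all probe sets were called as well. Without the 2 and 4 hr arrays 10 members were called, and 9.46% of all probe sets against 4.34% in the main fit. Of these steps those of Cdh11 and Fat3 were called with every array left out in turn. The step of Cdh15 was lost without either 12 hr array (0.81 and 0.75) or the first 24 hr array (0.69), and those of Cdhr1 (−0.74 to −0.97) and Pcdh18 (−0.44 to −0.59) without any array of 12 or 24 hr. For Dsc2 and Dsg2 both 24 hr arrays were above both 12 hr arrays, but the steps of 0.52 and 1.15 did not pass (adjusted p = 0.075 and 0.061). The arrays of 12 and 24 hr did not overlap in 8113 of 14217 genes, in either direction.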

How the data were processed

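Each of the 10 arrays was processed by the authors with RMA (version not given in the sources used here), and the deposited intensities are linear values of 31042 probe sets, besides 57 array controls that were set apart. Gene symbols came from the platform annotation: 20826 probe sets had 1 symbol, 436 several and 9780 none. Intensities were put on the log2 scale with no further normalization and no filter, and limma 3.58.1 (R 4.3.3) was fitted over all 10 arrays with 1 mean per time point, 5 residual degrees of freedom and Benjamini-Hochberg adjustment over all probe sets. The files hold no detection calls, and the number of arrays limits the precision. Replicates are those of the study's labels, so p-values measure the spread between these arrays. The paper describes 2 sets of RNA from different cultures, and whether like replicate numbers mark the same set is not given in the sources used here. Deviations of like-numbered arrays correlated at 0.33 between 2 and 4 hr, and at −0.15 to 0.00 otherwise, which cannot exclude a pairing. The main fit did not pair the arrays.

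Genes named were up to 24 called members by size of change whose arrays did not overlap with those of 0 hr, every type I, desmosomal and clustered member, every member called within a phase, and called genes of the partner lists. Members and lists were chosen with earlier results of these data known. Alternatives covered the fit, scaling, probe set choice, the replicate block and single arrays; the fits without the 2 and 4 hr arrays and with the Actb ratio were chosen after seeing the data. The script for the fit was tested on simulated data. Tables and plots used Python 3.11.15, pandas 2.3.3 and matplotlib 3.10.9.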

Additional observations from a re-analysis of the deposited data

How the results depend on the processing

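Of the 60 calls of member genes, 30 held under every alternative run, among them Cdhr1 and Pcdh18 at all 4 times, Dsc2, Dsg2, and Cdh6 from 4 hr on, Cdh3, Cdh15, and Pcdh17 at 12 and 24 hr, and Cdh1 at 24 hr. Over 1355 values under the alternatives, 1183 kept the call, 172 lost it and 0 changed sign. Many of these could not differ from the main fit. The unadjusted p cannot lose an adjusted call, and leaving out an array of another time leaves the difference unchanged. The totals are therefore no measure of how firm the calls are. The cause of the lost calls was not tested. With single arrays left out, the count of called members was 3 to 9 at 2 hr (8 with all arrays), 7 to 14 at 4 hr (12), 11 to 17 at 12 hr (16), and 12 to 19 at 24 hr (18), 0 to 2 from 2 to 4 hr (1), and 2 to 6 from 12 to 24 hr (5). At 2 hr the count was 16 at an unadjusted p and 4 with the Actb ratio as a covariate (30.6% and 7.92% of all probe sets). At 24 hr it was 13 by the methods' analysis of variance and 12 with the Actb ratio (26.4% and 17.3%). From 2 to 4 hr it was 9 at an unadjusted p and 5 by the methods' analysis of variance (17.1% and 7.57%, against 3.73% in the main fit). With a trended and robust prior it was 4 (4.15%). It was 3 without the bottom tertile of brightness (5.83% of those kept), with the mean of all probe sets (4.95% of genes) or with the Actb ratio (4.75%). It was 2 with median centring (3.88%) or with 16 added to each intensity (4.15%), and 0 with only the arrays of those groups (0.0387%). From 12 to 24 hr it was 17 at an unadjusted p and 12 by the methods' analysis of variance (17.8% and 14.7%, against 4.34% in the main fit). It was 8 with a trended and robust prior (5.21%), and 10 without the 2 and 4 hr arrays (9.46%). The share over all probe sets thus moved with the setting as well. With the replicate number as a block, the counts were 6, 10, 16, and 17 at the 4 times, 0 from 2 to 4 hr, and 5 from 12 to 24 hr; since only the 2 and 4 hr arrays with like numbers deviated together, the numbers are not taken to pair the arrays. The 21 members in the bottom tertile of brightness give little room to detect a change.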

Other observations

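Probe sets on exons shared by a whole protocadherin cluster carry several symbols and belong to no single member. Both for the Pcdha cluster, each with 15 symbols, moved up between 12 and 24 hr. The brighter one read 110.7 and 124.6 at 0 hr, 137 and 138 at 2 hr, 122 and 126 at 4 hr, 90.9 and 86.4 at 12 hr, and 181 and 182 at 24 hr. It was lower at 12 hr (−0.41 on the log2 scale, SE 0.09, limma adjusted p = 0.013) and higher at 24 hr (0.63, adjusted p = 0.0016), and the step between them was 1.03 (adjusted p = 0.0013). The other was higher at 24 hr as well (0.60, SE 0.09, adjusted p = 0.0028) and at −0.19 at 12 hr, with a step of 0.78 (adjusted p = 0.0043). Both for the Pcdhg cluster, with 14 and 13 symbols, were called at no time, at log2 differences between −0.23 and 0.15. The Pcdha members with a probe set of their own, Pcdha12 and Pcdha13, were not called.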
